A study of Homo sapiens with 6 samples.

Results

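The 10 genes described here (B2M, TAP1, TAP2, TAPBP, PSMB8, PSMB9, PSMB10, ERAP1, ERAP2 and NLRC5) make peptides from cytosolic proteins and load them onto MHC class I molecules, or control that set of genes. They were taken by name, with earlier results of these data known. Each is represented by the probe set that carries its symbol alone and has the highest mean over 6 arrays. All 10 were measured, among 18417 genes in all. Expression was measured by array in THP-1 cells, an established human cell line of monocytic leukaemia origin. Of the 6 Affymetrix arrays, 3 held RNA of unstimulated cells and 3 held RNA of macrophage-like cells made with the phorbol ester PMA, an activator of protein kinase C. The PMA cells had been exposed to 200 nM PMA over 3 days and were then kept for 3 more days in its absence. Both kinds of cell were cultured in RPMI with 10% FBS, 2.5 mM glutamate and 0.05 mM 2-mercaptoethanol, and no genetic change is named in the labels. Whether replicates are separate cultures is not stated in the labels, and p-values therefore cover only differences among these arrays, which may be technical.

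Class I molecules show short peptides from inside the cell to CD8 T cells. The proteasome cuts proteins into peptides, and cells exposed to interferon-gamma exchange its constitutive catalytic subunits for the inducible ones PSMB8, PSMB9 and PSMB10, which form the immunoproteasome. TAP1 and TAP2 together pump peptides into the endoplasmic reticulum, tapasin (TAPBP) bridges the pump to empty class I molecules, the aminopeptidases ERAP1 and ERAP2 trim the peptides, and B2M is the light chain that every classical class I molecule needs. NLRC5 is a transactivator of class I genes, and several of the 10 genes are textbook targets of interferon.

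The promoters were examined first, because these genes are often described as a set under shared control. A promoter window here runs from 250 bases before to 50 bases after a transcription start in the RefSeq table (GRCh38.p14). Windows were found for 9 of the 10 genes, and NLRC5 was not matched. TAP1, PSMB8, ERAP1 and ERAP2 had 2 windows each. The pattern searched was GAAA, then any 2 bases, then GAAA, the core letters of an interferon-stimulated response element, on both strands. It occurred for 8 of those 9 genes and for 4.12% of the 14239 tested genes with a window (3.57% of all 35116 windows). The exception was PSMB9. TAP1, PSMB8, ERAP1 and ERAP2 held the pattern in 1 of their 2 windows. The sites are shown because they occur for genes that rose, for the 1 that fell and for some that did not pass. Each is 30 bases on the strand of its gene, 5′ to 3′, with matched letters in capitals (capitals that read TTTC are the pattern on the other strand, and a run of 16 capitals is a pair of overlapping matches).
B2M: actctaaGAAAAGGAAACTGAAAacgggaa
TAP1: cggccgcTTTCGATTTCGCTTTCccctaaa
TAP2: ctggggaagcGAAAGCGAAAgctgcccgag
TAPBP: tttggagGAAAGTGAAAGTGAAAggaggaa
PSMB8: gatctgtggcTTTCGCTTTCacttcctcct
PSMB10: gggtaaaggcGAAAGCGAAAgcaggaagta
ERAP1: cgggctccacTTTCACTTTCggtcctgggg
ERAP2: tcttagaacaGAAAGTGAAAgcaaaagtaa

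The site of B2M lies at chr15:44711366-44711395 (plus strand), that of TAP1 at chr6:32853816-32853845 (minus), that of TAP2 at chr6:32838778-32838807 (minus) and that of TAPBP at chr6:33314076-33314105 (minus). The site of PSMB8 lies at chr6:32844032-32844061 (minus), that of PSMB10 at chr16:67936852-67936881 (minus), that of ERAP1 at chr5:96807924-96807953 (minus) and that of ERAP2 at chr5:96876460-96876489 (plus). TAP1 and PSMB9 are neighbours that are read in opposite directions, and the TAP1 start nearer to PSMB9 lies 488 bases from the PSMB9 start. The TAP1 match lies in the stretch between these starts, 354 to 369 bases before the PSMB9 start and so outside the PSMB9 window. The 250 bases before that TAP1 start (chr6:32853705-32853954, minus strand) and the B2M start (chr15:44711267-44711516, plus strand) are given whole, with the same capitals, because TAP1 and B2M are among the genes that rose.
TAP1 promoter: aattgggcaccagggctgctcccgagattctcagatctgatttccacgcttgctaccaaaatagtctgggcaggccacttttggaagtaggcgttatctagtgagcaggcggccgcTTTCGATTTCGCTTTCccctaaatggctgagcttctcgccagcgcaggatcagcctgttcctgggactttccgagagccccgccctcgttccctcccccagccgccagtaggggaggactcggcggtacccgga
B2M promoter: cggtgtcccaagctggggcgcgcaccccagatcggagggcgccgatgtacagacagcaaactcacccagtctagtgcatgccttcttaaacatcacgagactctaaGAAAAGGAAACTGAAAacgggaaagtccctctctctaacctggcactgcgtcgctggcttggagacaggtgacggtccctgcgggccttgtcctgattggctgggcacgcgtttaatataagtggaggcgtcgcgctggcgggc

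A match is a description of letters and not a measured binding site. Across all 587 tested genes whose window holds the pattern, 14.3% passed the test as higher with PMA and 14.8% as lower, against 13.7% and 13.4% of all tested genes with a window. The pattern TTCNNNGAA (N is any base), the core of a gamma-activated site, occurred in windows of TAP1 and PSMB8. That was 2 of the 9 genes, against 9.20% of tested genes. For TAP1 it lay in a different window from the interferon response match, and for PSMB8 it lay in the same window without overlap. The AP-1 core TGANTCA, the letters of the classical phorbol ester response element, was found in 0 of the 9 genes' windows and for 8.0% of tested genes, which says only that these letters are not in these windows.

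The light chain, a chain of the peptide transporter and both trimming enzymes were higher in PMA-differentiated cells, by 1.58-fold to 1.94-fold, and an inducible proteasome subunit was lower. B2M, TAP1, ERAP1 and ERAP2 rose, PSMB10 fell, and TAP2, TAPBP, PSMB8, PSMB9 and NLRC5 did not pass the test. The test was limma across all 18417 genes with Benjamini-Hochberg adjustment and a threshold of 0.05 on the adjusted p. By it 4 of the 10 genes were higher, where 13.2% of all genes were, and 1 was lower, where 13.2% of all genes were; either way, 26.4% of all genes passed. The groups did not overlap for 6 of the 10 genes, against 41.2% of all genes: PMA lay above for 5 (19.2% of all genes) and below for 1 (22% of all genes). The median log2 fold change, PMA minus unstimulated, was 0.56 for the 10 genes and −0.03 for all genes, and 9 of the 10 values were above 0. Because the 10 were chosen with earlier results of these data known, these shares describe them only. The 10 were not tested as a set.

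**Figure D1:**
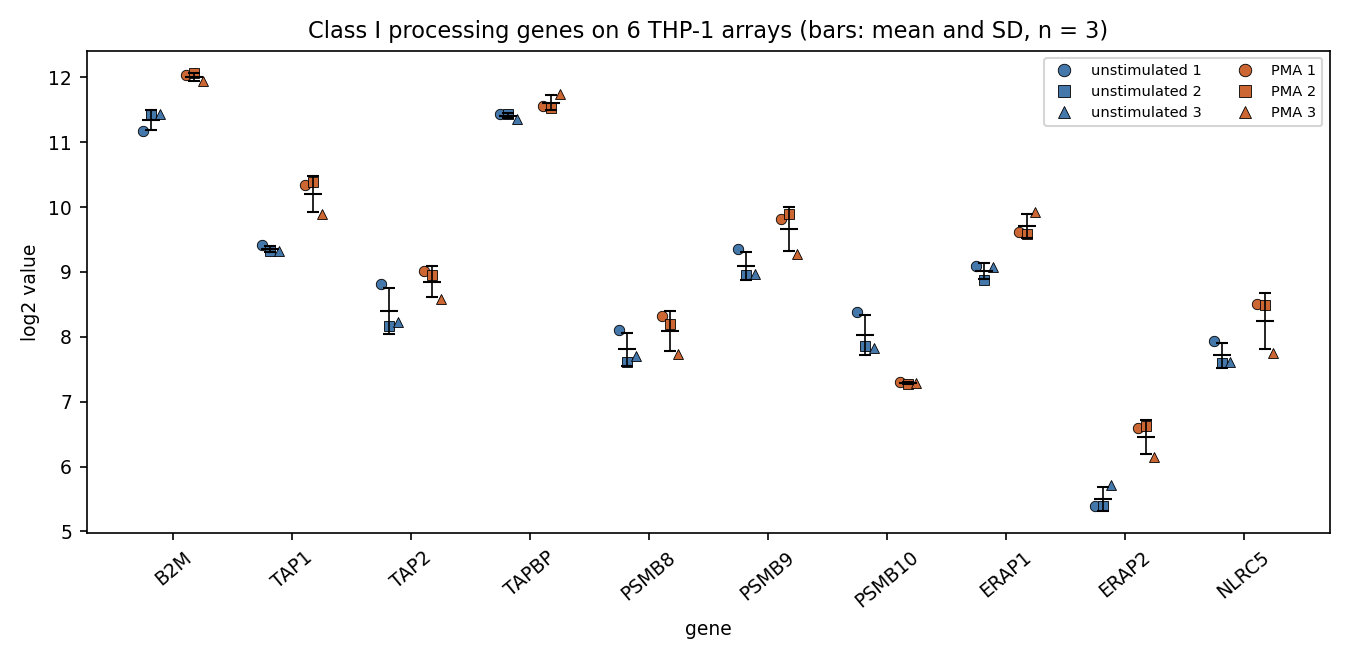
Log2 value (vertical axis) of each of the 10 genes on each array, unstimulated in blue and PMA in orange, with a symbol per replicate number and black bars for mean and SD (n = 3). B2M, TAP1, ERAP1, ERAP2 and TAPBP have every PMA array above every unstimulated array, and PSMB10 has every PMA array below; levels of different genes are not comparable.

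**Figure D2:**
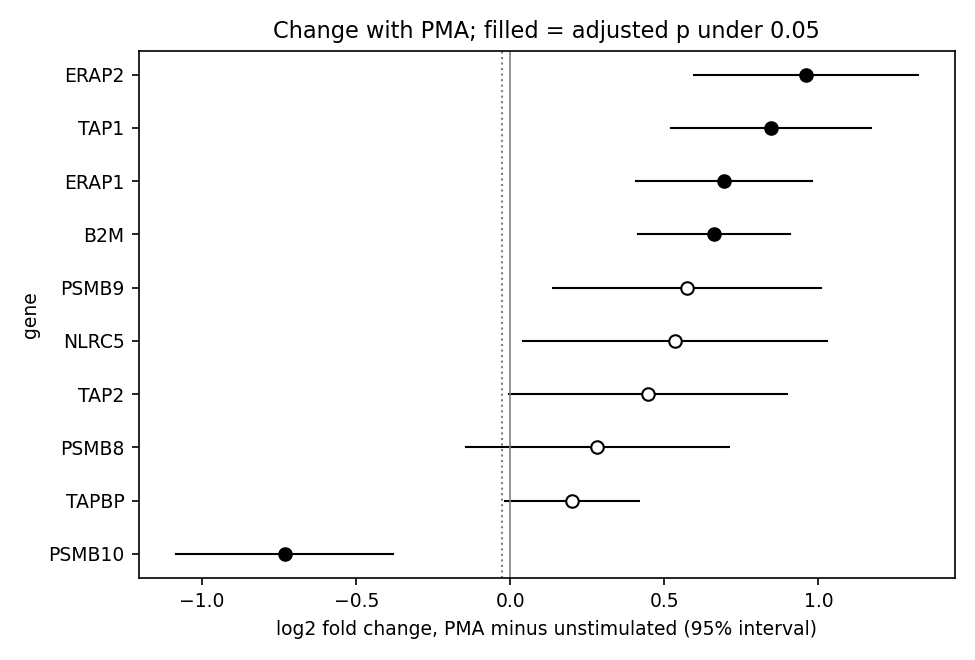
Log2 fold change (horizontal axis, PMA minus unstimulated) with its 95% interval from limma for each gene, in order of size; filled points passed an adjusted p of 0.05, the solid line is 0 and the dotted line is the median of all genes (−0.03). ERAP2 (0.96) is at the top and PSMB10 (−0.73) at the bottom.

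Among the inducible catalytic subunits that produce the peptides, PSMB10, which takes the trypsin-like place, fell. Its log2 values were 8.38, 7.86 and 7.83 on unstimulated arrays 1, 2 and 3 and 7.30, 7.27 and 7.29 on PMA arrays 1, 2 and 3. The PMA arrays were nearly equal and lay 0.53 below the lowest unstimulated array. The log2 fold change was −0.73 ± 0.15 (SE, n = 3 per group; limma adjusted p = 0.00955), which is a level 1.66-fold higher in unstimulated cells. Unstimulated array 1 was the highest of all, and without it the change was −0.55 (adjusted p = 0.00467).

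PSMB9, which replaces the caspase-like subunit, did not pass. It was 9.35, 8.96 and 8.97 in unstimulated cells and 9.82, 9.90 and 9.28 with PMA. PMA array 3 lay below unstimulated array 1, so the groups overlapped through those arrays alone. The log2 fold change was 0.58 ± 0.19 (adjusted p = 0.0582). PSMB8, the inducible chymotrypsin-like subunit, was 8.10, 7.61 and 7.71 in unstimulated cells and 8.32, 8.20 and 7.74 with PMA. The same arrays, unstimulated 1 and PMA 3, made its groups overlap, and its change was 0.28 ± 0.18 (adjusted p = 0.327).

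Of the transporter chains, TAP1 passed and TAP2 did not. TAP1 was 9.41, 9.33 and 9.33 in unstimulated cells and 10.34, 10.39 and 9.89 with PMA. The unstimulated arrays were nearly equal, PMA array 3 was the lowest of its group, and it still lay 0.48 above the highest unstimulated array. TAP1 rose by 0.85 ± 0.14 (1.80-fold; adjusted p = 0.00339). TAP2 was 8.81, 8.17 and 8.23 in unstimulated cells and 9.02, 8.96 and 8.58 with PMA. Here unstimulated array 1 stood above PMA array 3, the change was 0.45 ± 0.19 and it did not pass (adjusted p = 0.141). The difference between the changes of TAP1 and TAP2 was not tested. Tapasin, TAPBP, was 11.43, 11.43 and 11.36 in unstimulated cells and 11.56, 11.53 and 11.74 with PMA. Its groups did not overlap, but they were only 0.10 apart, and the change of 0.20 ± 0.09 did not pass (adjusted p = 0.169).

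Both trimming peptidases rose. ERAP1, the aminopeptidase that shortens long precursors, was 9.10, 8.88 and 9.07 in unstimulated cells and 9.61, 9.59 and 9.93 with PMA. All PMA arrays were above all unstimulated arrays, with PMA array 3 the highest, and the rise was 0.69 ± 0.12 (1.62-fold; adjusted p = 0.00484). ERAP2, its partner, was 5.39, 5.39 and 5.72 in unstimulated cells and 6.59, 6.63 and 6.15 with PMA. PMA array 3 was the lowest of its group here and the groups were 0.44 apart. ERAP2 had the largest change of the 10 genes, 0.96 ± 0.16 (1.94-fold; adjusted p = 0.00326), from values between each array's lower quartile (4.46 to 4.57) and median (6.10 to 6.25). ERAP1 and ERAP2 are neighbours on opposite strands, and whether their probe sets read 1 strand is not given in the sources used here.

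The light chain B2M was already bright and rose further. It was 11.17, 11.43 and 11.44 in unstimulated cells and 12.03, 12.06 and 11.94 with PMA, so the lowest PMA array was 0.49 above the highest unstimulated array. The rise was 0.66 ± 0.11 (1.58-fold; adjusted p = 0.00299). NLRC5, the transactivator, was 7.93, 7.60 and 7.61 in unstimulated cells and 8.50, 8.49 and 7.75 with PMA. PMA arrays 1 and 2 were above every unstimulated array while PMA array 3 was below unstimulated array 1, and the change of 0.53 ± 0.21 did not pass (adjusted p = 0.108).

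Among the 9 genes with values above 0, the 95% intervals of the changes overlapped, except that the interval of TAPBP (−0.02 to 0.42) ended below those of TAP1 (0.52 to 1.17) and ERAP2 (0.59 to 1.32). The interval of PSMB10 (−1.08 to −0.38) lay below the intervals of the other 9 genes.

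Single arrays decided several of these calls. Unstimulated array 1 was the highest of its group for 8 of the 10 genes, against 39.4% of all genes, and PMA array 3 was the lowest of its group for 7 of the 10, against 36.0% of all genes. Without unstimulated array 1, TAP2 (0.65, adjusted p = 0.0180) and PSMB9 (0.70, adjusted p = 0.0356) passed as higher, and 6 genes rose (13.3% of all genes did). Without PMA array 3, PSMB9 (0.77, adjusted p = 0.00532) and NLRC5 (0.78, adjusted p = 0.00325) passed, and again 6 genes rose (14.1% of all genes). With both arrays left out, a choice made after their values were known, 8 genes rose where 17.4% of all genes did: PSMB8 (0.60, adjusted p = 0.00186), PSMB9 (0.90, adjusted p = 9.29e-05), TAP2 (0.79, adjusted p = 0.000243) and NLRC5 (0.89, adjusted p = 8.79e-05) joined the 4. TAPBP did not pass then either (0.15, adjusted p = 0.338), and PSMB10 remained lower (−0.56, adjusted p = 0.00235). B2M, TAP1, ERAP1 and ERAP2 passed without each array in turn, and so did PSMB10.

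**Figure D3:**
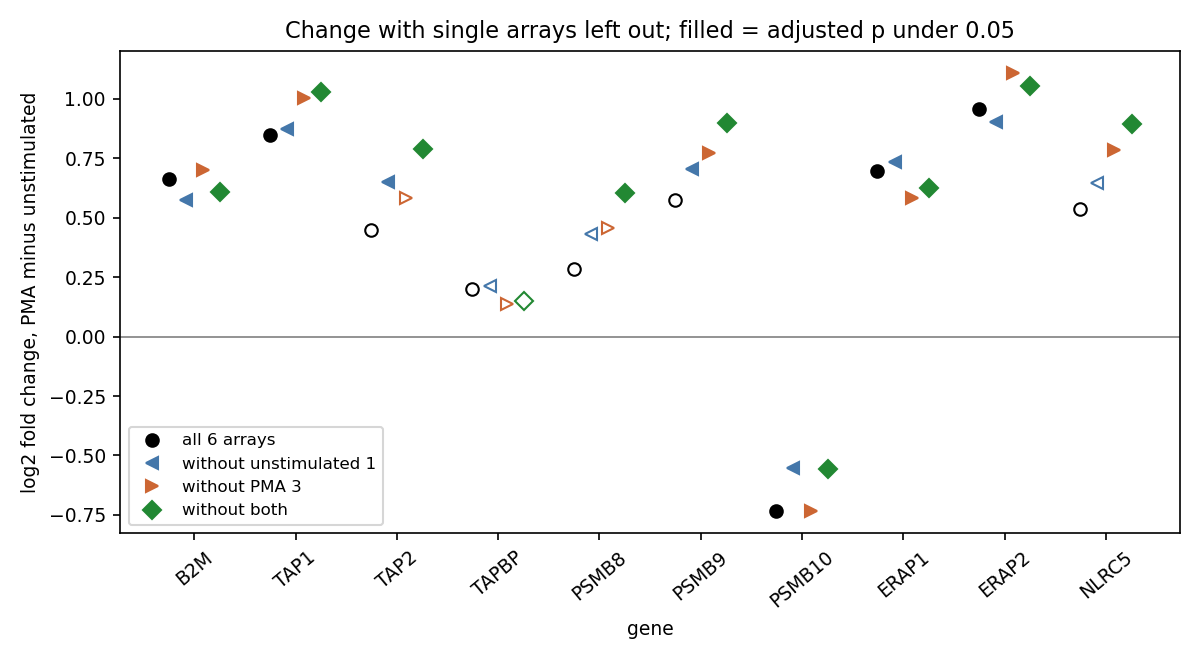
Log2 fold change (vertical axis) of each gene with all 6 arrays (circles), without unstimulated array 1, without PMA array 3, and without both (diamonds); filled symbols passed an adjusted p of 0.05. PSMB8, PSMB9, TAP2 and NLRC5 are open with all arrays and filled without both, where NLRC5 went from 0.53 to 0.89.

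Where a gene had several probe sets they agreed in direction. TAP1, PSMB8 and PSMB9 each had 3 probe sets holding the same value on every array, so these are 1 measurement each. The 3 probe sets of TAP2 gave log2 fold changes of 0.41 to 0.45 and those of TAPBP 0.16 to 0.20. The other 5 genes had 1 probe set each.

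The constitutive counterparts of the inducible subunits gave a point of comparison. PSMB5, the counterpart of PSMB8, was 9.87, 9.18 and 9.32 in unstimulated cells and 9.79, 9.83 and 9.36 with PMA (change 0.21 ± 0.20, adjusted p = 0.536). PSMB6, the counterpart of PSMB9, was 10.75, 9.94 and 10.04 and then 10.31, 10.12 and 10.07 (−0.08 ± 0.21, adjusted p = 0.838). PSMB7, the counterpart of PSMB10, was 9.99, 9.65 and 9.79 and then 9.94, 9.99 and 9.81 (0.10 ± 0.11, adjusted p = 0.580). All 3 overlapped between groups, and unstimulated array 1 was the highest of its group for each. Taken within each array, the log2 difference PSMB10 minus PSMB7 was −1.61, −1.79 and −1.96 on unstimulated arrays and −2.64, −2.72 and −2.52 on PMA arrays, a shift of −0.84. For PSMB9 minus PSMB6 it was −1.40, −0.98 and −1.07 and then −0.49, −0.21 and −0.80, a shift of 0.65. For PSMB8 minus PSMB5 it was −1.78, −1.57 and −1.61 and then −1.48, −1.63 and −1.62, a shift of 0.08. The PMA and unstimulated arrays did not overlap in the first and second of these differences and overlapped in the third. In the second, the nearest arrays of the groups were unstimulated 2 at −0.98 and PMA 3 at −0.80. The shifts were not tested. Only the shift between groups can be read from such differences, since levels of different probe sets are not on 1 scale.

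**Figure D4:**
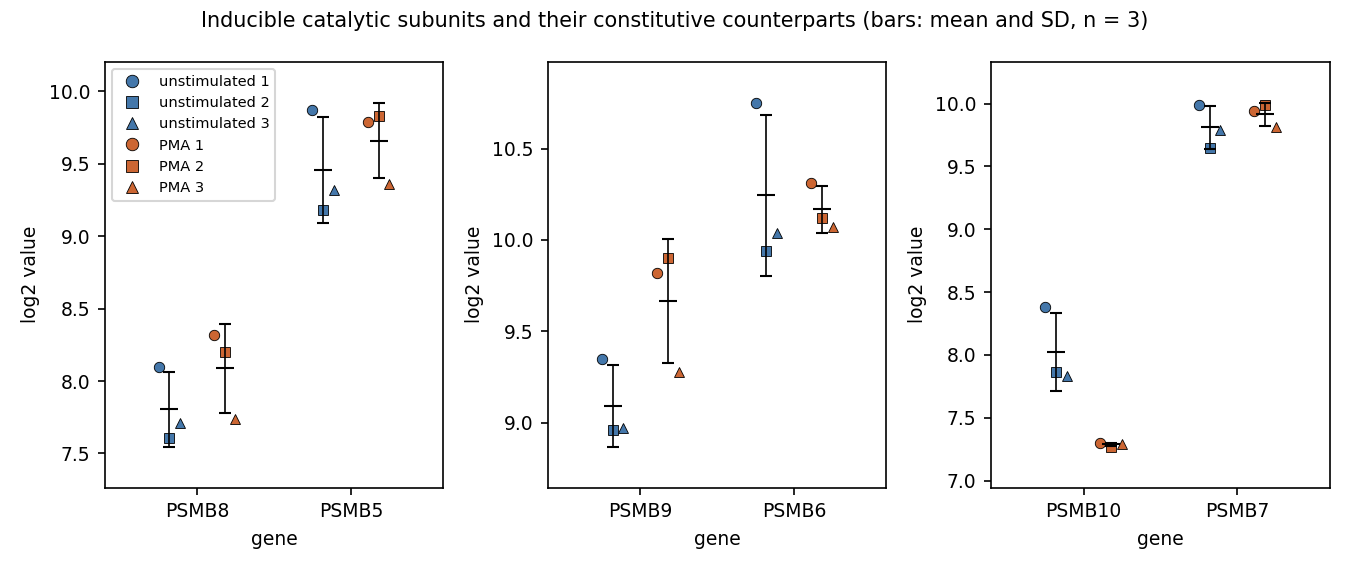
Log2 values (vertical axes) of each inducible catalytic subunit beside its constitutive counterpart on the 6 arrays, with mean and SD (n = 3); the panels have different axes that do not start at 0. PSMB10 drops to 7.27 to 7.30 on the PMA arrays while PSMB7 overlaps between groups, and unstimulated array 1 (blue circle) is the highest blue symbol in all 3 panels.

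The rest of the proteasome passed the test in few places. Of 11 structural subunits of the core particle, 0 passed in limma (26.4% of all genes did), 0 had an unadjusted p under 0.05 (36.6% of all genes) and 0 passed a gene-wise test that uses each gene's own variance alone (15.4% of all genes). Their median change was 0.02, with a range of −0.21 to 0.18. Of 9 activators and assembly factors, 0 passed in limma and 0 by the gene-wise test, and 3 had an unadjusted p under 0.05. Without unstimulated array 1, 3 of them passed as higher, where 13.3% of all genes did. The 9 include the subunits of the interferon-inducible activator PA28, PSME1 (−0.03 ± 0.11, adjusted p = 0.874) and PSME2 (−0.13 ± 0.24, adjusted p = 0.754), named here after their values were seen. PSME2 was 10.23, 9.34 and 9.50 in unstimulated cells and 9.83, 9.55 and 9.29 with PMA. Of 15 measured subunits of the regulatory particle, 1 rose, the ATPase PSMC4 (0.81 ± 0.22, adjusted p = 0.0318), and 0 fell, with a median of 0.22, where 13.2% of all genes rose. That count was 7 without unstimulated array 1 (where 13.3% of all genes rose), and 0 without unstimulated array 2, unstimulated array 3, PMA array 1 or PMA array 3. Unstimulated array 1 was the highest of its group for all 11 structural core subunits and 14 of the 15 regulatory subunits, as it was for PSMB8, PSMB9 and PSMB10.

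In the rest of the loading machinery 1 of 6 measured genes passed, and among the other peptidases 1 of 6, where 26.4% of all genes passed. Each of these genes fell, which is 16.7% of its list and near the 13.2% of all genes that fell. The lectin chaperones calreticulin, CALR (−0.05 ± 0.14, adjusted p = 0.859), and calnexin, CANX (−0.07 ± 0.09, adjusted p = 0.615), which fold and hold class I heavy chains, did not pass. The tapasin-like peptide editor TAPBPL (−0.08 ± 0.18), the glucosyltransferase UGGT1 (0.03 ± 0.10) and the glucosidase MOGS (−0.06 ± 0.13) did not pass either. The glucosidase subunit GANAB was the 1 that fell (−0.31 ± 0.09, adjusted p = 0.0438), and it failed to pass without each of the 6 arrays in turn (adjusted p 0.0719 to 0.143). Of 6 peptidases that trim or destroy peptides outside the proteasome, nardilysin, NRDC, fell (−0.53 ± 0.10, adjusted p = 0.00617), and it passed without each array. Tripeptidyl peptidase TPP2 (−0.16 ± 0.11), thimet oligopeptidase THOP1 (−0.10 ± 0.11), the puromycin-sensitive aminopeptidase NPEPPS (0.01 ± 0.10), bleomycin hydrolase BLMH (−0.17 ± 0.10) and leucine aminopeptidase LAP3 (0.29 ± 0.10, adjusted p = 0.0608) did not pass. The chaperone PDIA3 was not analysed here.

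Of 13 measured transcription factors known to act on class I genes, 3 rose and 2 fell. Over all genes 13.2% rose and 13.2% fell, so the number that fell is near that share. IRF2 (1.16 ± 0.14, adjusted p = 0.000676), IRF1 (0.88 ± 0.13, adjusted p = 0.00231) and the NF-kappaB subunit NFKB1 (0.83 ± 0.11, adjusted p = 0.00111) rose. IRF1, an activator induced by interferon-gamma, was 7.38, 6.94 and 7.10 in unstimulated cells and 8.02, 8.13 and 7.90 with PMA, without overlap. IRF8, a myeloid lineage factor, fell from 11.90, 11.61 and 11.68 to 8.21, 8.60 and 8.08 (−3.43 ± 0.15, adjusted p = 7.73e-06), the largest change among the genes of all pathway lists here. CREB1 fell (−0.37 ± 0.09, adjusted p = 0.0183) and did not pass without unstimulated array 3 (0.0708) or PMA array 1 (0.0697). With either array left out, 1 factor was lower, where 19.6% and 18% of all genes, respectively, passed in either direction. The 3 measured RFX subunits, which bind class I promoters with NLRC5, had values below 0 and did not pass. They were RFX5 (−0.24 ± 0.13, adjusted p = 0.227), RFXAP (−0.31 ± 0.12, adjusted p = 0.0949) and RFXANK (−0.31 ± 0.11, adjusted p = 0.0751), named after their values were seen. For each, every PMA array lay below every unstimulated array, as for 22% of all genes, though by only 0.009 for RFX5.

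Of the 4 interferon receptor chains measured, 3 rose, and IFNAR2 (0.16 ± 0.12, adjusted p = 0.394), named after its values were seen, did not pass. In the whole list of 9 interferons, receptors and kinases, 3 rose and 0 fell, with a median of 0.02, where 13.2% of all genes rose and 13.2% fell. Those that rose were the interferon-gamma receptor chains IFNGR2 (0.97 ± 0.11, adjusted p = 0.000633) and IFNGR1 (1.26 ± 0.39, adjusted p = 0.0475), and the type I receptor chain IFNAR1 (0.88 ± 0.13, adjusted p = 0.00199). IFNGR1 was 8.61, 9.26 and 9.34 in unstimulated cells and 9.95, 9.77 and 11.27 with PMA. It did not pass without unstimulated array 1, 2 or 3 or without PMA array 1 (adjusted p 0.0696 to 0.122). Its change was 0.79 without PMA array 3. In that fit 1 gene of this list fell, and 27.4% of all genes passed in either direction. IFNG (3.03 to 3.29) and IFNB1 (2.67 to 3.31), named after their values were seen, lay below the lower quartile of every array in both groups. Of 11 measured genes known to be induced by interferon-gamma, 1 rose, the guanylate-binding protein GBP3 (0.84 ± 0.12, adjusted p = 0.00169), and 0 fell, with a median of 0.11. Over all genes 13.2% rose, so the number that rose (9.09%) is near that share. CXCL9, CXCL11 and IDO1, named after their values were seen, lay below the lower quartile of every array in both groups. Without PMA array 3, 2 genes of this list rose (14.1% of all genes did). Without unstimulated array 1, 1 fell, where 25.9% of all genes passed in either direction.

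**Figure D5:**
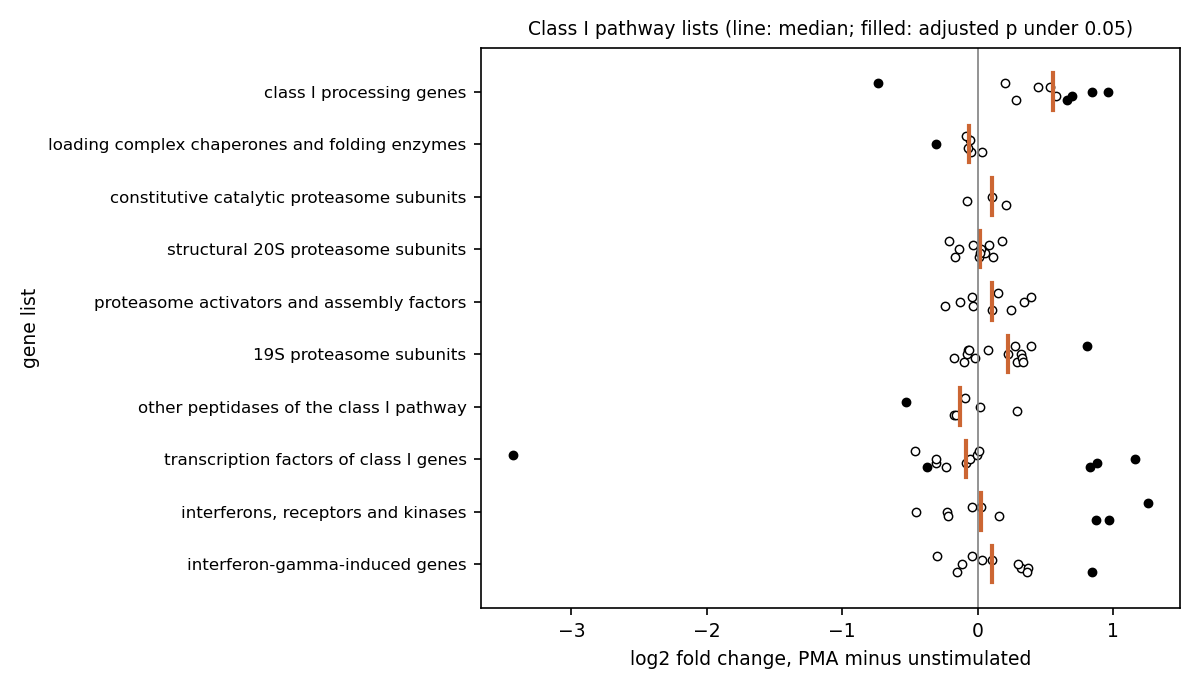
Log2 fold change (horizontal axis, PMA minus unstimulated) of each measured gene in the 10 class I processing genes (top row) and in 9 further lists of the pathway, with an orange line at each list's median; filled points passed an adjusted p of 0.05. The top row has a median of 0.56 and the other medians lie between −0.13 and 0.22, with IRF8 far to the left at −3.43.

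Over 33297 probe sets, arrays of 1 group correlated at 0.988 to 0.995 (Pearson) and arrays of different groups at 0.958 to 0.968, and unstimulated array 1 and PMA array 3 were the arrays least correlated with their own groups. Of 8 measured myeloid markers, 3 rose (ITGAM, CSF1R and CD14) and 3 fell (LYZ, CEBPA and MPO), where 13.2% of all genes rose and 13.2% fell. SPI1 (9.70 to 10.05) and CD68 (11.31 to 11.80) were well above the array medians on all arrays. Mean levels over markers of other cells lay at 4.67 to 5.06 for 5 T cell genes, 5.58 to 5.87 for 4 B cell genes and 4.89 to 5.06 for 3 erythroid genes over both groups, which overlapped. They did not overlap for 4 natural killer cell genes (4.18 to 4.24 in unstimulated cells, 4.52 to 4.61 with PMA), 5 epithelial genes (5.58 to 5.74, then 5.35 to 5.55) and 5 dendritic cell genes (5.83 to 6.04, then 5.39 to 5.56). Members of a list differed: FLT3 fell (−3.67, limma adjusted p = 0.000214) while CD1C rose (2.09, adjusted p = 0.000584), both on the dendritic cell list. NCAM1 (1.22, adjusted p = 0.000406) was the 1 natural killer cell gene that rose, and KRT18 (−0.84, adjusted p = 0.0444) and CD79A (−0.36, adjusted p = 0.0428) were the epithelial and the B cell gene that fell. These 5 genes were named after their values were seen, and the part of these markers in the results above was not tested. MS4A1, CLEC9A, KLRD1, KLRF1, EPCAM and CDH1 were below the lower quartile of every array. Fewer cells with a transcript and less of it per cell cannot be told apart in such bulk RNA.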

How the data were processed

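RNA of 6 THP-1 samples was hybridised to 1-colour arrays. The values deposited by the authors are log2 expression values for each probe set on each array. RMA and Partek are named in the submitters' processing notes, without versions. In general, RMA subtracts background, equalises distributions between arrays and summarises probes, which shrinks changes near background. Groups were taken from the sample titles. Platform annotation gave 19460 of 33297 probe sets a single symbol, 1754 several and 12083 none. Of the single-symbol probe sets, 19429 were matched by gene ID to the GRCh38.p14 gene table, whose symbol was then used. The probe set with the highest mean over 6 arrays stood for a gene (18417 genes), and no filter on low values was applied.

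The PMA and unstimulated groups were set against each other in limma 3.58.1 under R 4.3.3 (lmFit, then eBayes, group as the only term, two-sided, Benjamini-Hochberg adjustment over all genes, threshold 0.05). Precision is limited by the number of arrays. The 10 genes and the pathway lists were chosen with earlier results of these data known. Genes named were the 10, those past the threshold in each list (up to 3 per direction) and all genes of lists with at most 7 measured; others are marked. Promoter sequences are RefSeq's. Alternatives covered normalization, dim genes, probe set choice, the variance model, a replicate block, the threshold and each array left out. Figures were drawn with matplotlib 3.10.9.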

Additional observations from a re-analysis of the deposited data

How the results depend on the processing

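The calls of B2M, TAP1 and ERAP1 held in all 18 alternative fits, with log2 fold changes of 0.57 to 0.71, 0.76 to 1.03 and 0.58 to 0.76. ERAP2 held in the 17 that could test it (0.87 to 1.11); it is not among genes above the median level. TAPBP passed in none (0.10 to 0.24). Not every fit could change these values. B2M and ERAP1 have 1 probe set and the 3 of TAP1 are identical, so averaging probe sets left them as they were. In the fits without dim genes, in the gene-wise test and with the replicate block, only the adjusted p could differ. The number of the 10 genes that rose was 4 to 6 over the fits without 1 array each, and the number that fell was 1 in each. The number that rose was 8 with array quality weights, where 33.9% of all genes passed in either direction, against 26.4% in the main fit. It was also 8 without both arrays that stand apart (17.4% of all genes rose), an alternative chosen after seeing the data. In the gene-wise test, where no variance is shared, 0 of the 10 fell: PSMB10 had an adjusted p of 0.0738 there. PSMB9 also passed with cyclic loess (0.0450) and with genes below the median level left out (0.0452). No value changed direction. The shares of all called genes that were higher ranged from 44.8% to 54.1% over the 3 rescalings (50.1% as reported). Over the 3 rescalings the list counts differed by 1 gene at most. Samples share replicate numbers in the labels. The deviations of same-numbered arrays from their group means correlated at 0.18, −0.02 and 0.05, and those of different-numbered arrays at −0.15 to 0.11. With 3 arrays per group such values cannot decide whether the numbers mark pairs, and the main fit did not take them as pairs. With the replicate block, 5 of the 10 genes rose (PSMB9 with an adjusted p of 0.0328) and 1 fell, and 4726 of all genes passed against 4854. The table holds no background level, so dim values, near each array's lower quartile (4.46 to 4.57), were not set against one.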
